A study of Homo sapiens with 12 samples.

Results

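The miRNAs described here are those of the imprinted cluster on human chromosome 14, between DLK1 and DIO3. They were chosen by name from the small RNA table, as the rows whose miRNA number is 1 of 41 numbers known from this locus, with any arm or copy suffix. The rule found 50 of the 1451 rows of the table, from 34 of the 41 numbers. No row carried miR-154, miR-337, miR-412, miR-496, miR-541, miR-665 or miR-770.

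The tissue label of every library is xenograft and its cell line is Hep3B, derived from a human liver cancer, while the series text speaks of cells. Small RNA was sequenced in 3 tumour samples of a bufotalin group and in 3 of a control group, and total RNA in 3 samples of each. Bufotalin is a bufadienolide of toad venom, a cardiac glycoside. Dose, duration, route, host strain, age and sex of the hosts, and the control agent are not given in these sources, and all groups share 1 cell line and the host's own cells. No label states whether each replicate is a different animal, so every p-value reflects the scatter among these libraries, which could be technical.

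In the DLK1-DIO3 domain, the maternal chromosome expresses long noncoding RNAs such as MEG3 and MEG8 together with the small RNAs embedded in and around them, while the paternal chromosome expresses DLK1, RTL1 and DIO3. The miRNAs fall into a first group around MEG3 and RTL1 and a second, dense group that begins with miR-379 and ends with miR-656. The cluster is known for its activity in placenta, embryo and brain and for low levels in most adult tissues. miR-127, miR-431, miR-433, miR-432 and miR-136 lie antisense to RTL1, and in mouse miRNAs of this antisense group direct its cleavage.

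Of the 50 members, 49 matched a RefSeq mature miRNA on chromosome 14 (GRCh38.p14), all 49 on the plus strand, and miR-668-3p was not matched. The matched members spanned 198 kb, from position 100869075 to 101066786. They comprised 10 members before miR-379, among them miR-370-3p, and 39 members from miR-379 on, with 111 kb between the groups. The mature sequences of the 7 members that carried enough counts for a test are shown first, because the comparison of the groups rests on them. Capitals mark the seed, bases 2 to 8 from the 5′ end, which guides target pairing.
miR-127-3p (chr14:100883035-100883056): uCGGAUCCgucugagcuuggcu
miR-370-3p (chr14:100911186-100911207): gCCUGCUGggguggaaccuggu
miR-379-5p (chr14:101022071-101022091): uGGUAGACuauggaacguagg
miR-411-5p (chr14:101023340-101023360): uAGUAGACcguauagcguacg
miR-495-3p (chr14:101033804-101033825): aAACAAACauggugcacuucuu
miR-381-3p (chr14:101045968-101045989): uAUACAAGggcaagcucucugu
miR-409-3p (chr14:101065346-101065367): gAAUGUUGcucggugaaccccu

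Each of these 7 miRNAs had a seed of its own, and among the 49 matched members there were 47 different seeds. The neighbours miR-379-5p and miR-411-5p differed in the seed by 1 base, G2A with miR-379-5p first and positions counted from the 5′ end, and were identical at 14 of 21 positions. miR-495-3p and its neighbour miR-543 were identical at 18 of 22 positions. The last 12 bases of both were the same and the seed differed by A6U and A7U, with miR-495-3p first. The seeds shared by 2 members were those of miR-379-3p with miR-411-3p and of miR-485-3p with miR-539-3p, all with few counts. For 5 members another row of the table outside the cluster had the same seed, among them miR-3529-5p beside miR-379-5p, at 0 to 1.46 CPM.
miR-543 (chr14:101032033-101032054): aAACAUUCgcggugcacuucuu

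The cluster was close to silent in all tumours. Counts are given as CPM, each count divided by the library total and multiplied by 1000000, and libraries held 1869893 to 4197636 counts. Summed over the 50 members, the cluster had 73.3, 95.8 and 132 CPM in bufotalin libraries 1, 2 and 3, and 50.5, 164 and 90.9 CPM in control libraries 1, 2 and 3. The mean was 100.5 ± 29.8 CPM in bufotalin tumours and 102 ± 57.6 CPM in control tumours (SD, n = 3 each), so the sums overlapped and the means lay closer together than the libraries of either group. In the library where it was highest, control 2, the cluster took 0.0164% of all counts.

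All members together held 1569 counts in the 6 libraries. miR-127-3p held 29.5% of them, and miR-127-3p with miR-381-3p held 44.9%. A mean of at least 10 CPM was reached by these 2 members alone, or 4% of the members, against 25.2% of all rows of the table. A further 15 members lay between 1 and 10 CPM and 33 under 1 CPM. Totals under 10 counts were seen for 27 members, and 11 of those were counted once. In the order of mean level over the whole table, miR-127-3p was number 271 and miR-381-3p number 325. A count of 0 allows up to 3 counts, which is 0.715 to 1.60 CPM depending on the library. Most members therefore lay at or under what these libraries could show, and such limits cover counting error only.

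**Figure D1:**
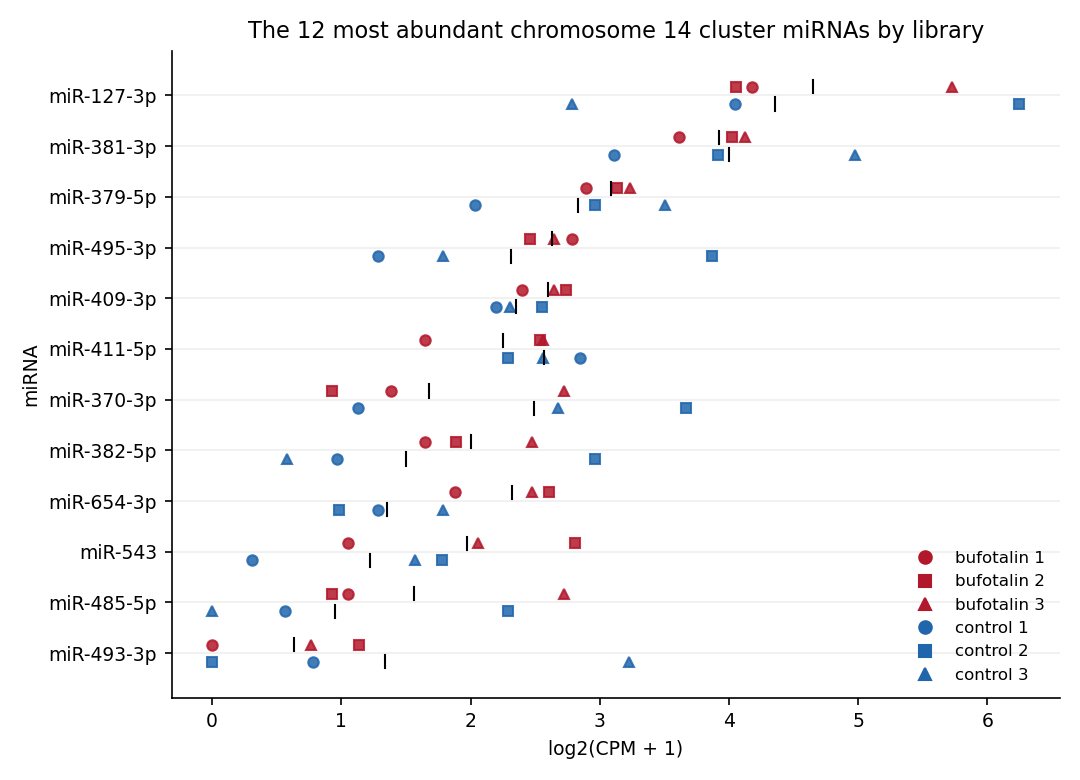
Level of the 12 most abundant cluster miRNAs as log2(CPM + 1) on the horizontal axis, with bufotalin libraries in red above control libraries in blue, 1 point per library and a black bar at the mean of the plotted values. The points of both groups interleave for 11 of the 12, and miR-654-3p is the exception.

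Within the first group, miR-127-3p, the most abundant member, had 17.1, 15.6 and 51.8 CPM in bufotalin libraries 1 to 3, and 15.5, 75.0 and 5.90 CPM in control libraries 1 to 3. Control 2 and bufotalin 3 were its highest libraries and control 3 its lowest, so the spread within each group was wider than the distance between them. miR-370-3p had 1.60, 0.898 and 5.60 CPM in the bufotalin libraries and 1.19, 11.7 and 5.41 CPM in the control libraries, again with control 2 and bufotalin 3 highest. miR-433-3p was counted 0, 2 and 8 times in bufotalin libraries and 2, 10 and 3 times in control libraries. miR-493-3p, from the first hairpin of the members along the chromosome, was counted 0, 4 and 2 times in bufotalin libraries and 3, 0 and 17 times in control libraries. Its high value was thus that of control 3 alone. Among the remaining miRNAs antisense to RTL1, miR-432-5p had 3 counts in all, miR-431-5p 3 and miR-136-3p 6.

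Within the second group, miR-381-3p had 11.2, 15.3 and 16.5 CPM in bufotalin libraries and 7.62, 14.1 and 30.5 CPM in control libraries. All its bufotalin values lay inside the control range. miR-379-5p, the first miRNA of the dense group, had 6.42, 7.79 and 8.41 CPM in bufotalin libraries and 3.10, 6.82 and 10.3 CPM in control libraries. Its bufotalin values also lay between the lowest and the highest control value.

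miR-495-3p had 5.88, 4.49 and 5.25 CPM in bufotalin libraries and 1.43, 13.6 and 2.46 CPM in control libraries, with the highest and the lowest value both among controls. miR-409-3p had 4.28, 5.69 and 5.25 CPM in bufotalin libraries and 3.57, 4.87 and 3.93 CPM in control libraries. It was the steadiest of the 7, and bufotalin 1 still lay under control 2. miR-411-5p had 2.14, 4.79 and 4.90 CPM in bufotalin libraries and 6.19, 3.90 and 4.92 CPM in control libraries, with overlapping groups.

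The members next in level were counted too rarely to pass the filter. miR-382-5p had 2.14, 2.69 and 4.55 CPM in bufotalin libraries and 0.953, 6.82 and 0.492 CPM in control libraries. miR-485-5p was counted 2, 3 and 16 times in bufotalin libraries and 2, 8 and 0 times in control libraries. Both were highest in control 2 and bufotalin 3, like miR-127-3p. miR-543 was counted 2, 20 and 9 times in bufotalin libraries and 1, 5 and 4 times in control libraries.

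miR-654-3p was the one abundant member whose groups did not overlap. It had 2.67, 5.09 and 4.55 CPM in bufotalin libraries and 1.43, 0.974 and 2.46 CPM in control libraries, from 5, 17 and 13 counts against 6, 2 and 5 counts. Over all members, 2 of 50 showed no overlap, miR-654-3p and miR-382-3p, both higher in bufotalin tumours, beside 13.9% of all rows of the table. Neither miR-654-3p nor miR-382-3p passed the filter. In the fit without a filter, which called 2.76% of all rows and no member, their adjusted p was 0.395 and 0.545 by edgeR's quasi-likelihood test. miR-654-3p entered the test without bufotalin 1 (log2 fold change 1.74, adjusted p = 0.208 by edgeR), without control 2 (1.14, 0.358) and without control 3 (1.95, 0.145), and was called in none of these fits. None of the 7 members tested with all libraries was free of overlap, beside 27.3% of the features tested. miR-382-3p was singled out after its values were seen.
miR-654-3p (chr14:101040269-101040290): uAUGUCUGcugaccaucaccuu

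Across the 477 features tested, edgeR's quasi-likelihood test called no member in either direction at a Benjamini-Hochberg adjusted p of 0.05, against 5.66% of all features (2.1% higher and 3.56% lower). Only 7 of the 50 members passed the filter on low counts, 14% of members against 32.9% of rows. None of the 7 had an unadjusted p under 0.05, and DESeq2, which called 13% of the same features, called none of them. By edgeR the lowest adjusted p among the 7 was 0.545, for miR-409-3p, with a log2 fold change of bufotalin over control of 0.50 (SE 0.45). The 95% interval ran from -0.50 to 1.51. The others had 0.34 for miR-379-5p, 0.28 for miR-127-3p, 0.19 for miR-495-3p, -0.16 for miR-411-5p, -0.18 for miR-381-3p and -0.78 for miR-370-3p. The interval of miR-127-3p ran from -1.45 to 2.00 and that of miR-370-3p from -2.72 to 1.15.

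Among the 7, 4 fitted values were above 0 and 3 below, with a median log2 fold change of 0.19, beside -0.04 over all features tested. The direction of miR-127-3p and miR-495-3p depended on the scaling: with library totals in place of TMM, the trimmed mean scaling of edgeR, they had -0.18 and -0.11, and the median over all features moved to -0.20. The intervals of all 7 include changes of at least 1 log2 unit in some direction, so these data do not exclude a change of that size.

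**Figure D2:**
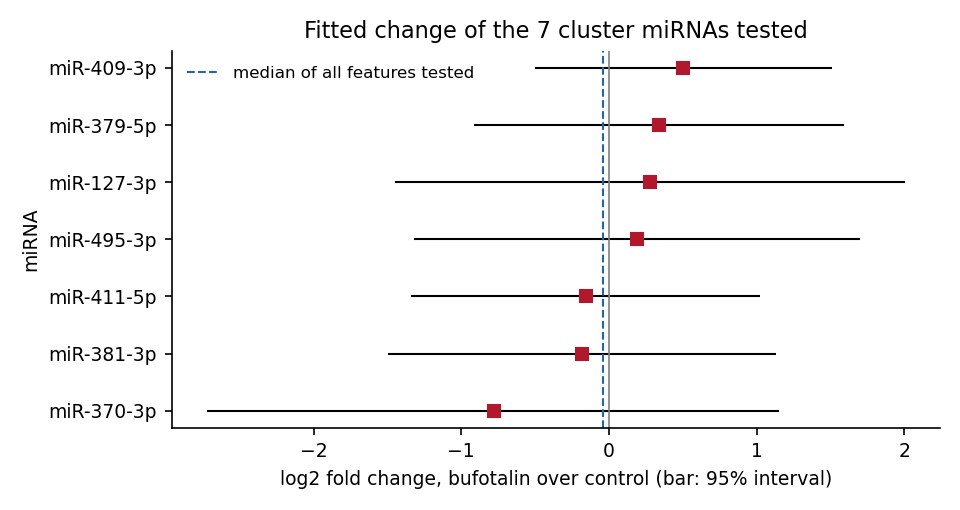
Bufotalin over control as a log2 fold change for the 7 members tested, with 95% intervals from edgeR's quasi-likelihood fit, the grey line at 0 and the dashed line at the median of all 477 features. Every interval spans 0, and the interval of miR-370-3p is the widest, from -2.72 to 1.15.

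The sum of the first group was mostly miR-127-3p, which held 463 of its 601 counts. The members before miR-379 summed to 18.7, 19.8 and 63.4 CPM in bufotalin libraries 1 to 3, and to 18.8, 93.0 and 24.1 CPM in control libraries 1 to 3. The members from miR-379 on were more even, with 54.5, 76.1 and 67.6 CPM in bufotalin libraries and 31.7, 71.1 and 66.8 CPM in control libraries. The ratio of the first to the second group was 0.343, 0.260 and 0.938 in bufotalin libraries and 0.594, 1.31 and 0.360 in control libraries. Bufotalin 3 and control 2 had the highest ratios. Without miR-127-3p, the other 9 members of the first group summed to 1.60, 4.19 and 11.6 CPM in bufotalin libraries and 3.34, 18.0 and 18.2 CPM in control libraries. Their ratio to the second group was then 0.029, 0.055 and 0.171 in bufotalin libraries and 0.105, 0.253 and 0.272 in control libraries. Control 3 was then highest, followed by control 2 and bufotalin 3. Of the 18.2 CPM in control 3, miR-493-3p held 8.36 CPM and miR-493-5p, counted in that library alone, 1.97 CPM.

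**Figure D3:**
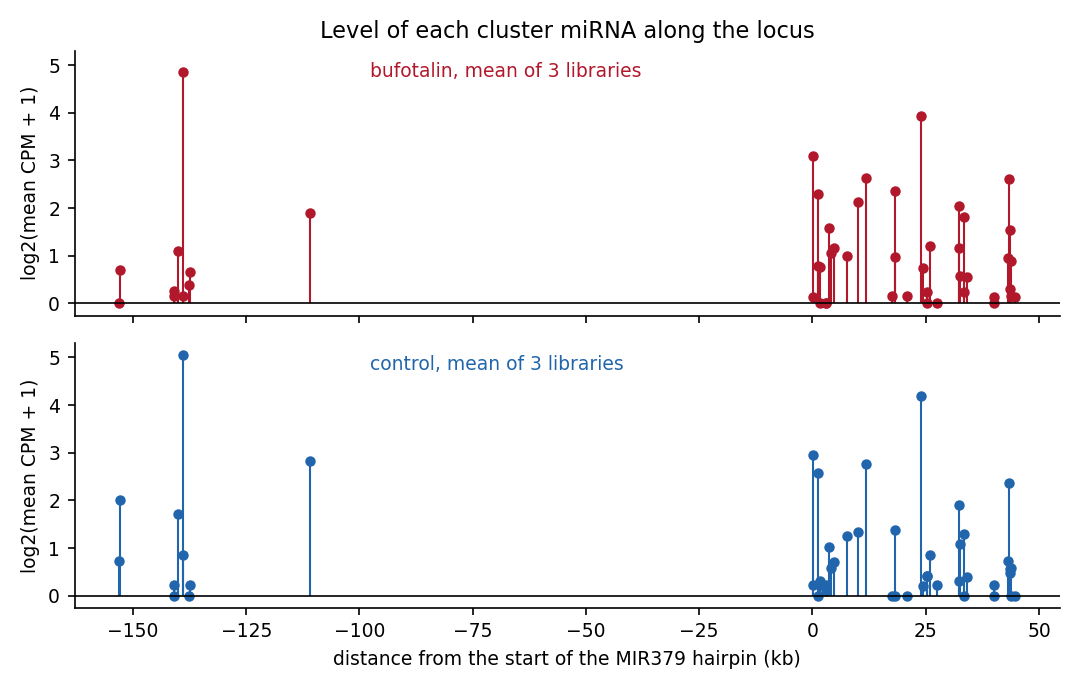
Mean level of each matched member as log2(mean CPM + 1) against the distance of its mature miRNA from the start of the MIR379 hairpin in kb, bufotalin tumours in the upper panel and control tumours in the lower one. miR-127-3p is the tall line near -139 kb and miR-381-3p the tall line near 23.9 kb in both panels.

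Bufotalin 3 and control 2 were also the highest libraries for the summed neural marker list of miR-9-5p, miR-9-3p and miR-124-3p, all 3 of which were in the table. This held for miR-9-5p and miR-124-3p but not for miR-9-3p, which had 2.14, 0.299 and 1.40 CPM in bufotalin libraries and 0.238, 0.487 and 0 CPM in control libraries. This list summed to 55.1, 37.7 and 175 CPM in bufotalin libraries and to 31.9, 212 and 36.4 CPM in control libraries. miR-124-3p, the defining neuronal miRNA, had 1.60, 1.198 and 14.4 CPM in bufotalin libraries and 1.43, 22.9 and 0 CPM in control libraries. Of the 14 members with at least 20 counts, 5 had bufotalin 3 and control 2 as their 2 highest libraries (35.7%), beside 6.48% of the 664 rows of the table with as many counts. The 5 were miR-127-3p, miR-370-3p, miR-433-3p, miR-382-5p and miR-485-5p, 3 of them from the first group. This grouping of libraries was noticed in these data and is given without a test, and the part of neural RNA in the cluster values was not tested. Without both libraries edgeR still called no member, and the median log2 fold change of the 6 members then tested was 0.20.
miR-382-5p (chr14:101054316-101054337): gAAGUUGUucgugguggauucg
miR-485-5p (chr14:101055427-101055448): aGAGGCUGgccgugaugaauuc
miR-433-3p (chr14:100881949-100881970): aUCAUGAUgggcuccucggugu

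**Figure D4:**
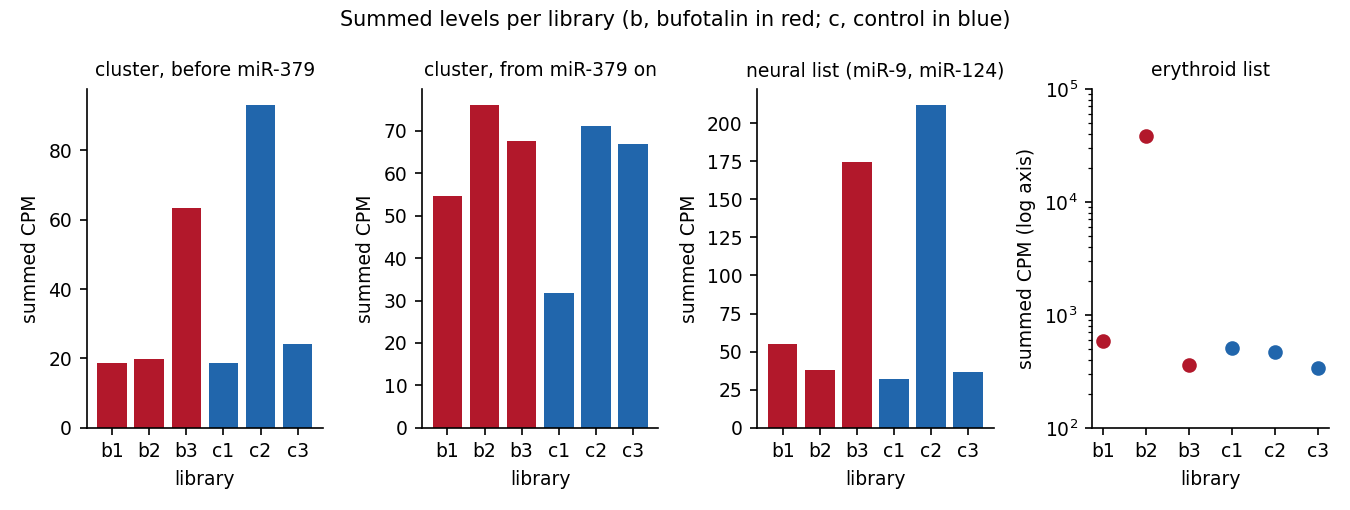
Summed CPM per library for the cluster members before miR-379, the members from miR-379 on, the 3 neural list miRNAs and, as points on a log axis, the 4 erythroid list miRNAs, bufotalin libraries (b1 to b3) left of control libraries (c1 to c3). Libraries b3 and c2 are highest in the panels of the members before miR-379 and of the neural list, and b2 stands apart in the erythroid panel.

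Bufotalin 2 differed from the others by blood cell miRNAs, and also by the muscle miRNA miR-1-3p, at 418 CPM there and 50.6 to 153 CPM elsewhere. All 4 erythroid list miRNAs were in the table and summed to 38609 CPM there, and to 341 to 585 CPM in the other 5 libraries. All 7 leukocyte list miRNAs were present too, at 290 CPM in bufotalin 2 and 16.7 to 43.9 CPM elsewhere. Of the 50 members, 15 were highest in bufotalin 2, among them miR-543, miR-654-3p and miR-889-3p. The matching share of all rows was not computed, so the count is not read as a trait of the cluster. Its link to the blood cell miRNAs was not tested. Bufotalin 2 was also among the deeper libraries, with 3339624 counts, and some of the 15, such as miR-656-3p, were counted once in all. miR-889-3p was counted 0, 13 and 0 times in bufotalin libraries and 2, 4 and 0 times in control libraries, so its counts came mainly from that library. Without bufotalin 2 no member was called, where only 8 of 479 features were, and the 7 members tested had a median of 0.33 on the log2 scale.

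Markers of the other cells a tumour can hold were measured in both groups. The fibroblast and smooth muscle list, with 9 of 10 miRNAs in the table and miR-199b-3p without a row, summed to 715 to 764 CPM in bufotalin libraries and 128 to 553 CPM in control libraries. Most of it was miR-143-3p, with 674, 641 and 674 CPM in bufotalin libraries and 454, 489 and 107 CPM in control libraries. It was not called (log2 fold change 1.19, adjusted p = 0.101 by edgeR). The groups overlapped for every other miRNA of this list in the table. Both endothelial miRNAs together had 1600 to 1980 CPM in bufotalin libraries and 2018 to 2240 CPM in control libraries. Nearly all of this was miR-126-3p, which was not called (log2 fold change -0.15, adjusted p = 0.817 by edgeR). miR-126-5p overlapped between the groups and was not called either (-0.60, adjusted p = 0.592 by edgeR). The muscle list, with 3 of 4 in the table, had 156, 421 and 57.8 CPM in bufotalin libraries 1 to 3 and 50.6 to 90.8 CPM in control libraries. The part of these cells in the cluster values was not tested, nor was the part of the host, whose miRNAs often share the human sequence. In such bulk samples, fewer cells of a type and less RNA per cell cannot be told apart.

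As a check of the label, the hepatocyte list had 3 of 4 miRNAs in the table and summed to 1610 to 2061 CPM in bufotalin libraries and 881 to 1616 CPM in control libraries. Most of it was miR-192-5p, while miR-122-5p, the defining hepatocyte miRNA, had only 36.4, 35.6 and 15.4 CPM in bufotalin libraries and 23.3, 24.3 and 116 CPM in control libraries. None of 6 listed liver genes was in the mRNA table, so this check could not be made there.

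For the arms of the hairpins, 31 members were 3p arms, 18 were 5p arms and miR-543 carries no arm suffix. Both arms had rows for 15 hairpins, of which 7 had more 3p counts, 6 more 5p counts and 2 equal counts. Each of the 7 hairpins with over 30 counts had most of them on 1 arm: 98.3% of 471 counts of miR-127 were 3p, 87.2% of 86 counts of miR-409 were 3p, and 84.2% of 57 counts of miR-654 were 3p. The opposite arm dominated for miR-379, with 1.79% of 112 counts on the 3p arm, for miR-411, with 8.24% of 85, for miR-485, with 3.12% of 32, and less fully for miR-382, with 22.4% of 58. miR-329-3p comes from a pair of hairpins whose reads cannot be told apart. None of 6 further locus miRNAs outside the rule, such as miR-300 and miR-544a, had a row.

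The placental cluster of chromosome 19, the other large imprinted miRNA cluster, was far more abundant in the same tumours. Its 29 rows summed to 692 to 981 CPM in bufotalin libraries and 798 to 1472 CPM in control libraries. In each of the 6 libraries it exceeded the chromosome 14 cluster, by 5.23 to 18.1 times. The excess is a description of these libraries, given without a test. Of its rows 5 passed the filter and edgeR called none, with a median log2 fold change of -0.75.

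Values from the far end of the domain are given next, and all come from rows selected for a difference or chosen after their values were seen. They therefore cannot be set against the cluster as a contrast. DIO3, which encodes the deiodinase that inactivates thyroid hormone, lies beyond miR-656 (14:101561351-101563452 in the deposited table). It had 0.440, 0.720 and 0.744 FPKM in bufotalin tumours and 0.235, 0.230 and 0.208 FPKM in control tumours. All bufotalin values were above all control values, but the level was low. Its mean was under the 0.5 FPKM minimum of the fit. Without that minimum limma gave a log2 fold change of 0.41 on log2(FPKM + 1) and an adjusted p of 0.00177. The transcript DIO3OS-204 (14:101557308-101560403), whose span does not overlap that of DIO3, had 0.239, 0.566 and 0.151 FPKM in bufotalin tumours. It was listed at 0 in the 3 control tumours. It passed limma's test (adjusted p = 0.00573). Without bufotalin 2, its highest library, it fell under the 0.1 FPKM minimum and was not tested. Both tables were selected by the authors for a difference on these samples, 93.2% of tested mRNA genes and 73.3% of tested lncRNA transcripts passed (29.2% higher and 44.1% lower), and such calls are no independent evidence.

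miR-1247 lies outside the rule and was chosen after its values were seen. Its hairpin (chr14:101560287-101560422, minus strand) overlaps the span of DIO3OS-204 by 117 bases. miR-1247-3p fell to 12.8, 3.89 and 9.81 CPM in bufotalin tumours, against 46.2, 57.5 and 37.4 CPM in control tumours. The groups did not overlap, and the log2 fold change was -2.25 (SE 0.45, adjusted p = 0.0156 by edgeR's quasi-likelihood test). miR-1247-5p had 9.63, 7.79 and 10.2 CPM in bufotalin tumours and 25.0, 30.2 and 19.7 CPM in control tumours. It had -1.25 and an adjusted p of 0.0704, and passed by DESeq2 (0.0279). The miR-1247-3p call was lost without bufotalin 2 (-1.86, adjusted p = 0.0568 by edgeR) and without bufotalin 3 (-2.47, 0.0589), and also without bufotalin 3 and control 2 together (-2.49, 0.0610). The miRNA and the FPKM values come from separate libraries, so they were compared with their own controls only.
miR-1247-3p (chr14:101560326-101560349, minus strand): cCCCGGGAacgucgagacuggagc
miR-1247-5p (chr14:101560362-101560383, minus strand): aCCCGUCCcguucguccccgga

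**Figure D5:**
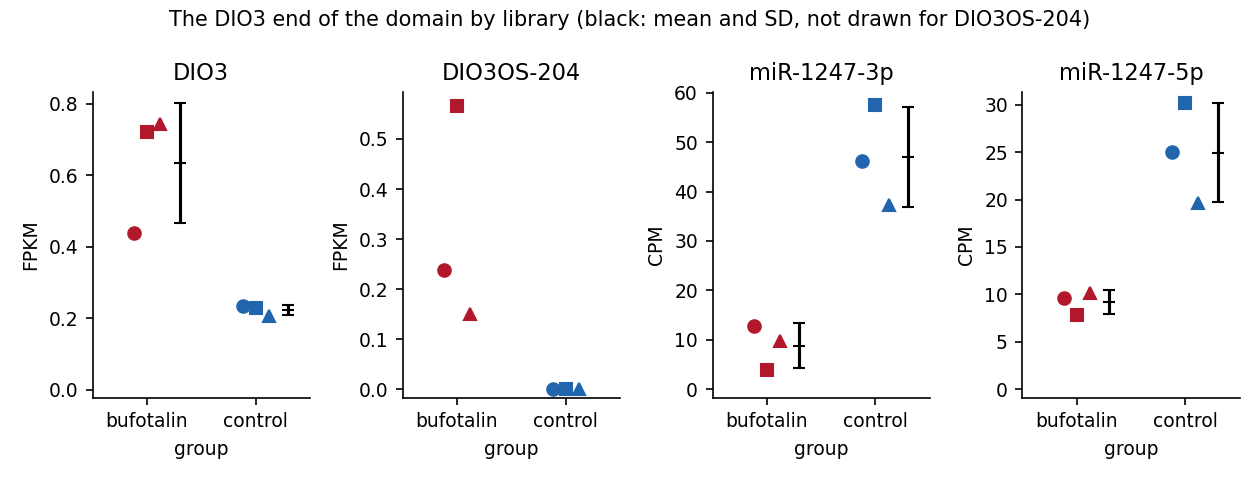
DIO3 and DIO3OS-204 in FPKM and both arms of miR-1247 in CPM, 1 point per library (circle 1, square 2, triangle 3) with bufotalin in red left of control in blue; black bars are mean and SD over 3 libraries, not drawn for DIO3OS-204, whose control libraries are listed at 0. In each panel the groups do not overlap: the first pair is higher and the second pair lower in bufotalin tumours.

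Of 12 listed genes of the domain, DIO3 and DIO3OS were the ones in the tables, and the others, among them MEG3, MEG8, DLK1 and RTL1, were not analysed here. The proteins that process miRNAs were looked up in the mRNA table, which held 5 of 20 listed genes, and all 5 rose past the test, where 44.3% of tested genes were called higher. AGO2, the slicing Argonaute, had 38.1 ± 9.11 FPKM in bufotalin tumours and 22.1 ± 2.08 FPKM in control tumours (SD, n = 3 each). Its log2 fold change was 0.74 (adjusted p = 0.00195 by limma). TARBP2, the partner of Dicer, had 17.6 ± 2.02 FPKM in bufotalin tumours and 11.5 ± 0.278 FPKM in control tumours (0.56). TUT7, which adds uridines to miRNA precursors, had 15.1 ± 2.77 FPKM in bufotalin tumours and 9.62 ± 0.702 FPKM in control tumours (0.59). DDX5, a helicase of the Drosha complex, and TNRC6A, a scaffold of silencing complexes, had 0.53 and 0.39. The DDX5 call was lost under quantile normalization (0.29, adjusted p = 0.0530 by limma). The TNRC6A call was lost without bufotalin 3 (0.20) and without control 2 or 3 (0.33 and 0.39), and also without the FPKM minimum (adjusted p = 0.0556 by limma).

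Regulators of imprinting and of the locus went both ways. The mRNA table held 8 of 17, and 7 were tested, of which 3 rose and 2 fell. Over all tested genes of that table, 44.3% were called higher and 48.8% lower, so calls both ways are not particular to these regulators. TET3, which oxidises methylated cytosine, had 18.5 ± 2.17 FPKM in bufotalin tumours and 7.37 ± 0.455 FPKM in control tumours (log2 fold change 1.22, adjusted p = 1.43e-05 by limma). TRIM28, a corepressor that maintains imprints, and CTCF, an insulator protein, rose by 0.54 and 0.46 on the log2 scale. DNMT3A, a de novo DNA methyltransferase, had 2.57 ± 0.599 FPKM in bufotalin tumours and 5.02 ± 0.0423 FPKM in control tumours (-0.77). ZNF445, a zinc finger protein of imprint maintenance, had -0.58. Under quantile normalization DNMT3A had -0.15 and ZNF445 -0.000361, and neither was called. MEF2D, of the family that drives the miR-379 to miR-410 cluster in rat neurons, had 0.63 and UHRF1, which recruits DNMT1, had 0.30, both without passing. Leaving out bufotalin 1 made UHRF1 pass (0.47), and leaving out control 1 or 3 made MEF2D pass (0.77 and 0.84). Beside both lists, 6 of 10 fibroblast and smooth muscle genes were in the mRNA table and all 6 fell, with a median log2 fold change of -1.12, where 48.8% of tested genes were called lower. The miRNA list of these cells, from separate libraries, summed higher instead, at 715 to 764 CPM in bufotalin and 128 to 553 CPM in control libraries. The content of these cells was therefore not settled. Under quantile normalization PDGFRB turned to 0.094 and ACTA2 had -0.35, and neither was called (adjusted p = 0.399 and 0.0803 by limma). Of 4 endothelial genes CDH5 alone was in the table and rose (0.86, adjusted p = 9.03e-05 by limma), and of 3 leukocyte genes CSF1R alone, which also rose (0.46, adjusted p = 0.0117 by limma). Their part in the values of the other genes was not tested. AFF3 was under the FPKM minimum, at 0.00723 to 0.0132 FPKM in bufotalin tumours and listed at 0 in control tumours.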

How the data were processed

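The authors deposited read counts per mature miRNA, with TPM beside them, and FPKM for mRNA genes and lncRNA transcripts selected for a difference. The deposited TPM equalled the count over the library total times 1000000, with no length term (largest difference 4.37e-10), and is called CPM here. Per the labels' protocols, TRIzol was used for extraction and a NEBNext Ultra kit for the RNA-seq libraries. The submitters' processing notes name CASAVA 1.8, fastp, HISAT2 2.0.5, featureCounts 1.5.0-p3, DESeq2 1.20.0 and GRCh38, without saying which tool made which values.

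Counts of the whole table entered edgeR 4.0.16 (TMM scaling, filterByExpr, a robust quasi-likelihood fit). For FPKM, limma 3.58.1 was run with a trended and robust prior on log2(FPKM + 1), for mRNA averaging 0.5 FPKM or more, and on log2(FPKM + 0.1), for lncRNA averaging 0.1 FPKM or more. All tests are two-sided and adjusted over each table by Benjamini-Hochberg, with 0.05 as the threshold. DESeq2 1.42.0, R 4.3.3, Python 3.11.15, pandas 2.3.3 and matplotlib 3.10.9 were also used, and the fits were tested on simulated data. A value after ± is the SD of 3 libraries, and an SE is that of a fitted log2 fold change.

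The members named with every value were the 12 most abundant, any called, and, among those tested, the 5 largest and 5 smallest fold changes. Others were named after their values were seen. Of each gene list, up to 6 genes were named by smallest p, and UHRF1 and AFF3 were added to the imprinting regulators after their values were seen. The cluster was split at miR-379. The alternatives without bufotalin 3 and control 2, and those for miR-1247, were added after seeing the data. The members and all gene and marker lists were chosen with earlier results of these data known. Positions and sequences come from RefSeq (GRCh38.p14).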

Additional observations from a re-analysis of the deposited data

How the results depend on the processing

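No chromosome 14 cluster miRNA was called higher or lower by any of the alternatives run: DESeq2 size factors, library totals, no filter, a mean of at least 10 CPM, DESeq2, the replicate number as a block, each library left out in turn, and, chosen after seeing the data, bufotalin 3 and control 2 left out together. Without a filter 3 of the 50 members had an unadjusted p under 0.05 by edgeR, beside 191 of all 1451 rows. They were miR-411-3p, miR-493-3p and miR-654-5p, with 7, 26 and 9 counts in all. The median log2 fold change of the members tested was 0.19, and 0.73 without a filter, where 50 members were tested. It ranged from -0.39 without bufotalin 3 to 0.51 without bufotalin 1 over the libraries left out in turn. The cluster's share of counts in bufotalin tumours was 0.987 times that in control tumours. With library totals miR-127-3p turned to -0.18 and miR-495-3p to -0.11. Over the libraries left out in turn, miR-127-3p ranged from -0.69 to 1.45, miR-379-5p from -0.071 to 0.97, miR-381-3p from -0.58 to 0.75, miR-411-5p from -0.48 to 0.12 and miR-495-3p from -0.32 to 1.42. miR-409-3p ranged from 0.39 to 0.63. miR-370-3p, at -0.78 with all libraries, ranged from -2.10 without bufotalin 3 to -0.17 without control 2. Both had the same sign in every alternative that tested them. The causes of the reversals were not tested.
The replicate numbers are shared by both groups. Deviations from the group means correlated by 0.135, 0.0291 and 0.364 between libraries of the same number, 1, 2 and 3. Between libraries of different numbers the correlations ran from -0.324 to 0.220. So few values cannot settle whether the numbers pair the samples. With the replicate block, edgeR called 3 of 477 features against 27 without it, miR-381-3p had 0.049 in place of -0.18, and miR-1247-3p had -2.35 (adjusted p = 0.0770). With the replicate block in limma, MEF2D passed (adjusted p = 0.0307) and TNRC6A did not (adjusted p = 0.0515). Counts called over the whole table were 62 with DESeq2, 40 without a filter, 6 to 40 with a library left out and 7 without bufotalin 3 and control 2. At this depth 43 of the 50 members had too few counts for a test.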
